A study of Homo sapiens with 6 samples.

Results

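Mucin genes and the transcription factor SPDEF were followed after knockdown of CBX8 in A549, a line long established from a human lung adenocarcinoma. CBX8 is one of the chromobox proteins through which Polycomb repressive complex 1 binds chromatin. The 5 genes are MUC5AC, MUC5B, MUC16, MUC1 and SPDEF, taken by symbol from a table that held 28449 genes once its transcripts had been summed, of which 17114 had enough counts to be tested. All 5 were among the 17114. Cells were infected with lentiviruses carrying a control hairpin or a hairpin against CBX8, and stable lines were obtained. The 6 RNA sequencing libraries form 3 groups of 2, called control, shCBX8-1 and shCBX8-2 here. All 3 groups therefore carry a lentiviral hairpin. Not stated are whether a line is a single clone, whether both libraries of a group are separate cultures, and what the first number in the shCBX8 titles stands for. The p-values below set the groups against the spread between libraries of the same group, which may be purely technical. If so, they may be too small.

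The 5 genes were chosen by their measured levels and fold changes in these same libraries. Those levels and fold changes are therefore given as a description, without a test. Tests are reported for other genes of the mucin programme, whose lists were also drawn up with results of these libraries known, and for the share of each transcript within a member gene, which the choice did not use. Both hairpin groups are compared with the same 2 control libraries, so the 2 comparisons are not independent of each other.

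Mucins are large glycoproteins whose serine- and threonine-rich repeats carry dense O-linked sugars. MUC5AC and MUC5B are the gel-forming mucins of airway mucus. They polymerise through disulfide bonds, are packed dehydrated into granules and swell on release, and in the airway MUC5AC is best known from surface goblet cells and MUC5B from glands and club cells. MUC16, which carries the CA125 antigen, and MUC1 are transmembrane mucins that stand on the apical surface and shed their extracellular part. SPDEF is an ETS-family transcription factor known for driving goblet cell differentiation and mucus genes in the airway.

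Promoter windows of 300 bases, from 250 bases before the start site to 50 after it, were matched in the RefSeq table of GRCh38.p14 for 3 of the 5 genes, MUC16, MUC1 and SPDEF. They are printed to show where the letters of known motifs lie relative to the start of genes that stood higher in shCBX8-2. Each runs 5′ to 3′ on the minus strand, with the start site at base 251. Capitals mark GGAT, the core preferred by SPDEF among ETS factors, or its complement in the MUC16 (chr19:9065702-9066001) and SPDEF (chr6:34556280-34556579) windows. In the MUC1 window (chr1:155192866-155193165) they mark GGGCGG, the GC box read by SP1.
MUC16: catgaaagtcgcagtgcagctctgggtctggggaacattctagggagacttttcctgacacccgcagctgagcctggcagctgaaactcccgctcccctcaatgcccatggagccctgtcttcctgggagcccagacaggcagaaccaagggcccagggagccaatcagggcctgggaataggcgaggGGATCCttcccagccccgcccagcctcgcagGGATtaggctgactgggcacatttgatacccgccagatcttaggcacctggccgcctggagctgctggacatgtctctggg
MUC1: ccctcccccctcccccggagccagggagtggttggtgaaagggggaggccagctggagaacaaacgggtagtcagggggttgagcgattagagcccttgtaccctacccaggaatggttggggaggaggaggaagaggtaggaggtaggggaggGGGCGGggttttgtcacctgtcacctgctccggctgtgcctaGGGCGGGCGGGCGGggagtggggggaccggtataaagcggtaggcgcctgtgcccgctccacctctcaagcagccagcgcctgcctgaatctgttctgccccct
SPDEF: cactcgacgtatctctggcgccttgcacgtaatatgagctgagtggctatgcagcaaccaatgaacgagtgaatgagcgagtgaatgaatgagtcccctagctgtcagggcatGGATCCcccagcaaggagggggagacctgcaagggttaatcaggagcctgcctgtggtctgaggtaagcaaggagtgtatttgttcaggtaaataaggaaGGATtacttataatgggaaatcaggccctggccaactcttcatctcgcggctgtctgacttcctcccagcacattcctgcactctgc

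Searched on both strands with overlaps counted, GGAT occurred 3 times in the MUC16 window, beginning 62, 60 and 31 bases before the start site, and 3 times in the SPDEF window, at 137, 135 and 37 bases before it. In each window the first 2 matches are the overlapping readings of both strands of 1 palindromic stretch. GGAT was absent from the MUC1 window. It is a short word, found in 76.5% of the 35116 promoter windows in the table, so its presence sets no gene apart. The MUC1 window held GGGCGG 4 times, at 96, 54, 50 and 46 bases before the start, of which the last 3 overlap, and the MUC16 window held it once, at 47 bases before. GGGCGG is found in 45.0% of windows. MUC1 also held TATAAA, the classical core promoter box, at 24 bases before the start (11.5% of windows) and CACCTG, an E-box, at 82 and 75 bases before it. The MUC16 window held 1 CACCTG, beginning at position 13 after the start (20.6% of windows hold the word). SPDEF held 1 TNTTTAC, a forkhead word, at 49 bases before the start (10.8% of windows). GC content was 62.0% in the MUC16 window, 65.7% in that of MUC1 and 52.0% in that of SPDEF, with 8, 13 and 8 CpG dinucleotides. The ratio of observed to expected CpG was 0.278, 0.418 and 0.397, and 30.3%, 41.8% and 40.3% of all windows had a lower one. These are matches of letters, and no binding was measured.

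CBX8 itself (gene 57332, GRCh38.p14 chromosome 17, 79792132 to 79797077) stood at 24.6 and 26.3 CPM (counts scaled to a common library total by TMM, the trimmed mean of M values) in control, at 7.79 and 7.70 in shCBX8-1, and at 17.7 and 13.8 in shCBX8-2. The group means were 30.4% and 61.9% of control. Every hairpin library was thus below both controls, lowest in shCBX8-1. Library totals were 64197784 to 67169537 estimated counts. The median log2 gap between the libraries of the same group, taken over genes, was 0.129 for control, 0.129 for shCBX8-1 and 0.241 for shCBX8-2. Across 16198 genes, which are not independent replicates, the deviation of a gene from its mean followed its GC content in opposite directions in the shCBX8-2 libraries (Spearman rho 0.337 in replicate 1 and -0.242 in replicate 2, against -0.157 to -0.016 in the other 4). KRT8 and KRT18, keratins of simple epithelia, made up most of the 21825 to 31179 CPM held by 8 epithelial markers in a library. Of 9 markers of alveolar type 2 cells, to which A549 is often likened, ABCA3 gave nearly all of the 48.1 to 64.3 CPM, and SFTPC, the defining surfactant gene, had no count in control or shCBX8-2. Markers of leukocytes summed to 3.43 to 5.98 CPM, and of endothelium to 1.88 to 5.72, with CD3E and KDR at 0 in all 6 libraries. The 6 fibroblast markers, mostly COL1A1, summed to 11.99 and 14.5 CPM in control, to 8.46 and 9.17 in shCBX8-1, and to 6.19 and 5.55 in shCBX8-2. DCN was at 0 throughout, and the part of this sum in the mucin levels was not tested.

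MUC5AC, the inducible gel-forming mucin, differed most of the 5 between the hairpin groups. MUC5AC (gene 4586, GRCh38.p14 chromosome 11, 1157953 to 1201138) was at 53.7 and 58.7 CPM in the control libraries, 23.8 and 22.6 in shCBX8-1, and 295.9 and 289.4 in shCBX8-2. The 3 groups do not overlap, and the order is shCBX8-2, then control, then shCBX8-1. Group means were 56.2 ± 3.55, 23.2 ± 0.866 and 292.6 ± 4.60 CPM (SD, n = 2). Against control, the log2 fold change of MUC5AC was -1.28 ± 0.08 (SE) in shCBX8-1, which is 0.412 of the control level, and 2.38 ± 0.08 in shCBX8-2, which is 5.21-fold. Between the hairpin groups MUC5AC was 12.6-fold higher in shCBX8-2 (3.66 ± 0.09). In bulk RNA a change in the number of cells that make a transcript and a change in its amount per cell cannot be told apart.

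MUC5B, the gel-forming mucin held to be constitutive in airways, shared the high level in shCBX8-2 but not the low level in shCBX8-1. MUC5B (gene 727897, GRCh38.p14 chromosome 11, 1223066 to 1262172) was at 21.7 and 33.98 CPM in control, at 25.3 and 28.7 in shCBX8-1, and at 173.7 and 153.7 in shCBX8-2. The shCBX8-1 libraries lie between the 2 controls, and both shCBX8-2 libraries are far above the rest. Its log2 fold change was -0.05 ± 0.20 in shCBX8-1 and 2.56 ± 0.21 in shCBX8-2, or 5.88-fold. The control libraries differed by 0.646 log2 for MUC5B, against a median of 0.129 over all genes, so its fold changes are less precise than those of MUC5AC. Without control 1 the MUC5B value in shCBX8-1 became -0.32, and without control 2 it became 0.33.

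Together the gel-forming pair stood at 75.4 and 92.7 CPM in control, at 49.04 and 51.2 in shCBX8-1, and at 469.6 and 443.1 in shCBX8-2. That was 0.00772% and 0.00957% of all estimated counts in control and 0.0444% and 0.0433% in shCBX8-2. Ranked by count among the genes of a library, MUC5AC held places 4096 and 3724.5 in control (a tie gives a place between whole numbers), 7212 and 7390.5 in shCBX8-1, and 559 and 541 in shCBX8-2. Per kilobase of transcript, MUC5AC exceeded MUC5B 2.54 and 1.77 times in control and 1.75 and 1.93 times in shCBX8-2. In shCBX8-1 the level of MUC5AC per kilobase was below that of MUC5B, with ratios of 0.967 and 0.807. The balance of the pair therefore overlapped between control and shCBX8-2 and was lower in both shCBX8-1 libraries.

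MUC16 stood high in both hairpin groups. MUC16 (gene 94025, GRCh38.p14 chromosome 19, 8848844 to 9065751) was at 0.935 and 1.03 CPM in control, at 5.92 and 5.81 in shCBX8-1, and at 7.30 and 7.22 in shCBX8-2. These are 62 and 69 counts in control against 383 to 463 in the hairpin libraries. Its log2 fold change was 2.57 ± 0.18 in shCBX8-1 and 2.88 ± 0.18 in shCBX8-2, or 5.95-fold and 7.37-fold. The 3 groups do not overlap, but the step between the hairpin groups was small, at 0.31 ± 0.17. MUC16 ranked shCBX8-2, shCBX8-1, control, and the remaining CBX8 transcript was lowest in shCBX8-1. Every member was highest in shCBX8-2. A relation of any member to the CBX8 level was not tested.

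MUC1, the second transmembrane mucin and a well-known tumour antigen, showed the same order with smaller steps. MUC1 (gene 4582, GRCh38.p14 chromosome 1, 155185824 to 155192915) was at 8.43 and 10.9 CPM in control, at 14.3 and 13.8 in shCBX8-1, and at 22.6 and 15.48 in shCBX8-2. The groups do not overlap in these sums over transcripts, although shCBX8-2 replicate 2 lies close to shCBX8-1. The most abundant transcript alone overlapped control in shCBX8-2, as given below. Its log2 fold change was 0.54 ± 0.21 in shCBX8-1 and 0.98 ± 0.21 in shCBX8-2, or 1.45-fold and 1.97-fold. The value in shCBX8-2 was 0.69 without replicate 1 of that group and 1.22 without replicate 2. The step from shCBX8-1 to shCBX8-2, 0.44 ± 0.21, was 0.15 without shCBX8-2 replicate 1.

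SPDEF followed the direction of MUC5AC in each group, at a smaller size. SPDEF (gene 25803, GRCh38.p14 chromosome 6, 34537802 to 34556329) was at 8.44 and 10.7 CPM in control, at 5.73 and 5.78 in shCBX8-1, and at 16.6 and 15.6 in shCBX8-2. No group overlaps another, and the order is again shCBX8-2, control, shCBX8-1. The log2 fold change of SPDEF was -0.74 ± 0.16 in shCBX8-1, 0.600 of control, and 0.74 ± 0.16 in shCBX8-2, or 1.68-fold. Between the hairpin groups it was 2.79-fold higher in shCBX8-2 (1.48 ± 0.16).

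**Figure D1:**
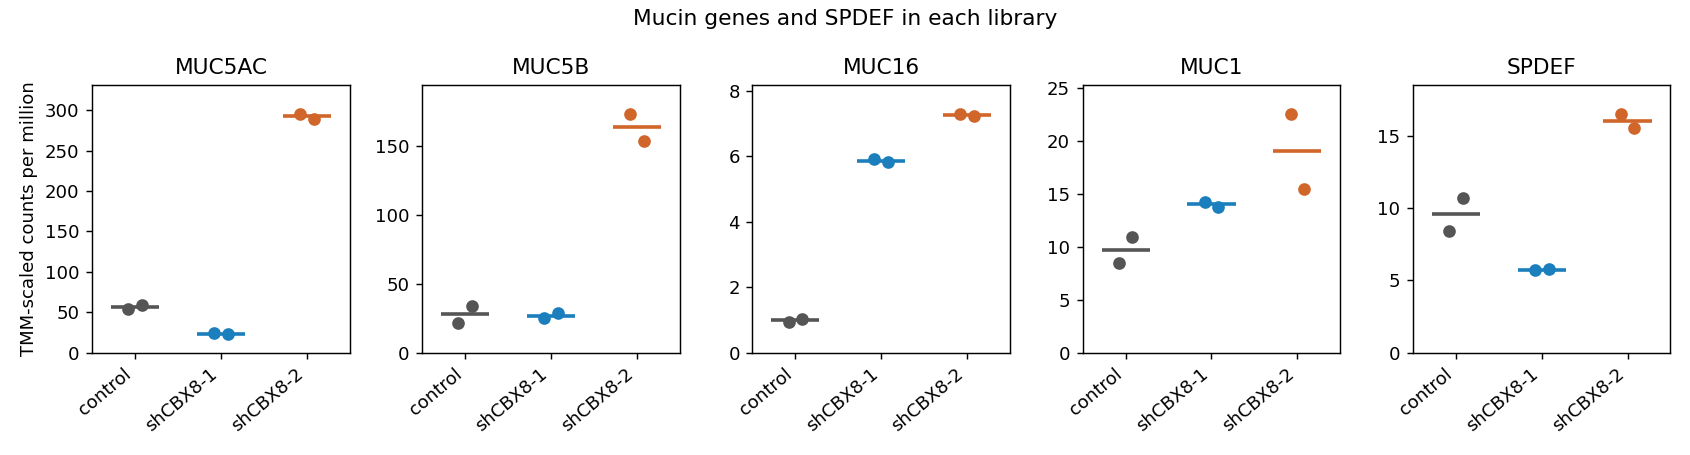
CPM (TMM-scaled, vertical axes, each starting at 0 and with its own range) of the 5 genes in the 2 libraries of each group. Points are libraries and lines are group means. MUC5AC and SPDEF are lowest in shCBX8-1, MUC16 and MUC1 are lowest in control, and all 5 genes are highest in shCBX8-2.

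In shCBX8-2 both libraries were above both controls for 5 of 5 members, a pattern seen for 26.0% of the 17114 genes tested. In shCBX8-1 it held for MUC16 and MUC1 (28.4% of genes), MUC5AC and SPDEF were below both controls (29.0% of genes), and MUC5B overlapped. Between the hairpin groups 5 of 5 members were higher in shCBX8-2 (26.2% of genes). Since the choice of members used these levels, nothing is read from these counts. Placed among all fold changes in shCBX8-2, 73 genes lay above MUC16, 93 above MUC5B, 112 above MUC5AC, 530 above MUC1 and 837 above SPDEF. In shCBX8-1 there were 105 genes above MUC16 and 1350 above MUC1, and 566 below MUC5AC and 1373 below SPDEF.

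Levels of different genes are comparable only per length, here as CPM per kilobase of the longest matched GENCODE transcript. In control MUC1 (5.27) and SPDEF (5.06) stood above MUC5AC (3.22) and MUC5B (1.55), and MUC16 was far below at 0.0224 CPM per kilobase. MUC1 and SPDEF differed by less than their spread over the 2 control libraries (SD 0.967 and 0.853). In shCBX8-1 the order was MUC1 (7.64), SPDEF (3.04), MUC5B (1.51), MUC5AC (1.33) and MUC16 (0.134 CPM per kilobase). In shCBX8-2 MUC5AC led at 16.8 CPM per kilobase, before MUC1 (10.4), MUC5B (9.14), SPDEF (8.48) and MUC16 (0.166). There the spread of MUC1 (SD 2.74) covered the gaps to MUC5B and SPDEF. The transcript of MUC16 is 43816 bases long against 1836 for MUC1, so its low value per kilobase rests on 62 to 463 counts per library. MUC1 has 15 matched transcripts of 516 to 1836 bases, which makes its value per kilobase the least certain.

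The deposited table splits counts by RefSeq transcript, which allows a test that the choice of genes did not use. MUC5AC, MUC5B and MUC16 each had counts on a single transcript. SPDEF had 2 transcripts, and the more abundant held 83.4% to 100% of its counts in every library. Its usage did not pass the test in either group (edgeR transcript usage test, adjusted p = 0.992 in shCBX8-1 and 1 in shCBX8-2). MUC1 had 21 transcripts listed, 11 of them with counts, and 1 transcript held 97.0% and 95.4% of the counts in control and 97.3% and 83.9% in shCBX8-1. In shCBX8-2 that share was 32.8% in replicate 1 and 91.1% in replicate 2. In replicate 1 the next transcripts held 343 and 504 counts, against 84 and 0 in replicate 2. The most abundant transcript had 542 and 698 counts in control, and 471 and 887 in shCBX8-2, so on that transcript the 2 groups overlap. The MUC1 test gave adjusted p = 0.863 in shCBX8-1 and 0.552 in shCBX8-2, over 8072 genes of which 158 and 164 were called. A change in MUC1 transcripts was thus not detected. In simulated counts for shCBX8-2 against control, over 7910 genes, the same test recovered 36 of 100 swapped transcript pairs. The swaps were made in both shCBX8-2 libraries, in genes with 1 dominant transcript, and every transcript had the same spread. No disagreement between libraries like that of MUC1 was simulated. The recovered share therefore does not say how often a change in MUC1 would be found. The higher MUC1 total of shCBX8-2 replicate 1 thus lies on transcripts that the other library of that group hardly holds. The correlation of gene deviations with GC content also had opposite signs in these 2 libraries, and its part in the MUC1 difference was not tested at the level of transcripts.

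**Figure D2:**
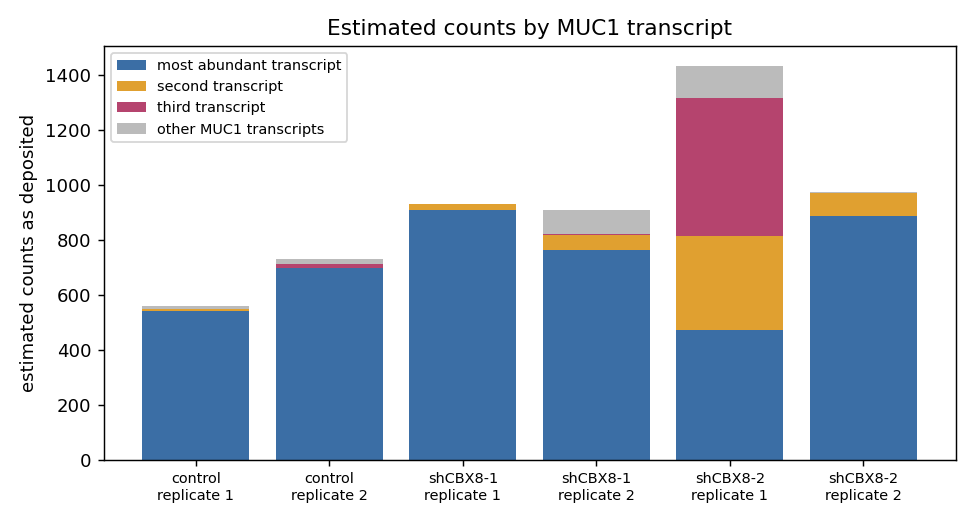
Estimated counts of MUC1 as deposited (vertical axis, from 0) in the 6 libraries, stacked by transcript. The most abundant transcript makes up most of every bar but that of shCBX8-2 replicate 1, where it holds 32.8%.

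The other mucin genes were compared next, as 5 genes listed as secreted and 12 listed as transmembrane mucins. Calls below are edgeR quasi-likelihood tests with Benjamini-Hochberg adjustment over all 17114 genes. A gene is called at an adjusted p under 0.05, at which 2.47% of genes were called in shCBX8-1 against control (1.34% higher, 1.13% lower), 12.7% in shCBX8-2 (6.04% higher, 6.66% lower) and 9.82% between the hairpin groups (4.04% higher in shCBX8-2, 5.77% lower). Leaving out 1 control or 1 shCBX8-1 library cut the calls far below these shares in every comparison. In shCBX8-1 almost none were left. A call lost in that way is therefore not particular to its gene. The shares also change with the libraries that enter the fit, as given below. Of the secreted mucins 3 could be tested. MUC2, the gel-forming mucin of intestinal goblet cells, was at 0.332 and 0.359 CPM in control, at 0.644 and 0.591 in shCBX8-1, and at 1.23 and 1.89 in shCBX8-2. It rose in shCBX8-2 (2.17 ± 0.44, adjusted p = 0.0246), whereas in shCBX8-1 the value was 0.84 ± 0.44 (adjusted p = 0.398). The MUC2 call ended without control 1 or control 2 (adjusted p = 0.149 each), without shCBX8-1 replicate 1 (0.0643) or without shCBX8-1 replicate 2 (0.0635). MUC6, a gastric gel-forming mucin, and OVGP1 were not called in either group, and MUC7 had no count. The median log2 fold change of the 3 tested genes was -0.41 in shCBX8-1 and 0.84 in shCBX8-2, beside -0.01 and -0.04 over all genes. With 3 genes these medians are the values of OVGP1 and of MUC6 (0.84 ± 0.82), neither of them called. No shift of the list is read from them.

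Of the transmembrane mucins 6 could be tested, and 1 was called. MUC3A, an intestinal membrane mucin, fell in shCBX8-1 (-0.88 ± 0.14, adjusted p = 0.0345), from 16.9 and 14.1 CPM to 8.71 and 8.19. In shCBX8-2 it was at 16.4 and 14.96 CPM (0.02 ± 0.14, adjusted p = 0.961). Unlike MUC16 and MUC1, MUC3A was thus not above control in either group. Its counts can include reads of close relatives on chromosome 7 and are uncertain to that extent. The MUC3A call was lost on leaving out control 1, control 2 or replicate 1 or 2 of shCBX8-1, each in turn. So were almost all shCBX8-1 calls over all genes. MUC13 was the most counted of the list, at 76.3 and 89.6 CPM in control, at 106.8 and 114.2 in shCBX8-1, and at 111.8 and 100.6 in shCBX8-2, and passed in neither group (0.41 ± 0.11 with adjusted p = 0.107, then 0.36 ± 0.11 with adjusted p = 0.0732). MUC4, MUC12, MUC20 and MUCL3 were not called either, and MUC21, MUCL1 (not strictly a transmembrane mucin) and EMCN had no count. The medians of the list were -0.02 and 0.12, close to those of all genes.

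**Figure D3:**
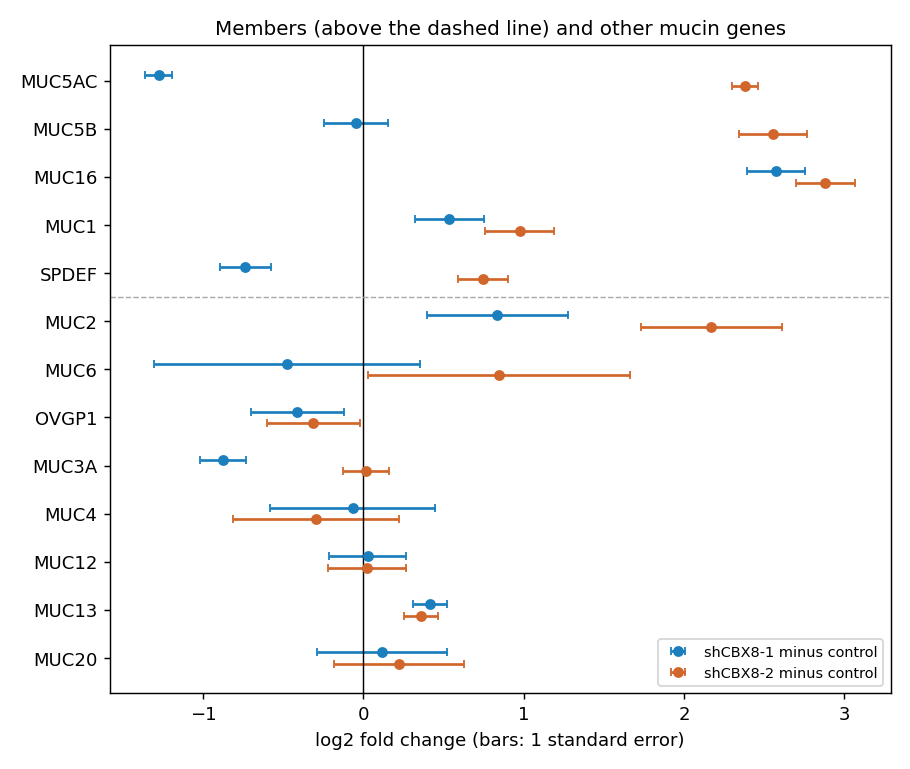
Log2 fold change against control (horizontal axis) with 1 standard error, in shCBX8-1 and in shCBX8-2, for the 5 genes above the dashed line and 8 other tested mucin genes below it (MUCL3, the lowest, is not drawn). MUC2 lies near 2.17 in shCBX8-2 and MUC3A at -0.88 in shCBX8-1, while MUC4, MUC12, MUC13 and MUC20 lie within about 0.41 of 0.

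A list of 30 goblet and airway secretory cell genes was read beside SPDEF and the gel-forming mucins. Of these 16 could be tested, 1 rose and 2 fell in shCBX8-1, and 5 rose and 1 fell in shCBX8-2. The list median was -0.17 in shCBX8-1 and 0.80 in shCBX8-2. SLPI, an antiprotease of airway secretions, was at 30.4 and 31.1 CPM in control, at 20.2 and 21.2 in shCBX8-1, and at 114.6 and 108.9 in shCBX8-2, the order of MUC5AC and SPDEF. It fell in shCBX8-1 (-0.57 ± 0.08, adjusted p = 0.0274) and rose in shCBX8-2 (1.86 ± 0.09, adjusted p = 0.000751). LCN2, a secreted siderophore-binding defence protein, did likewise (-0.80 ± 0.12, adjusted p = 0.0272, and 1.55 ± 0.12, adjusted p = 0.00177). CEACAM6, a surface glycoprotein of epithelial tumours, rose in both groups (1.18 ± 0.08, adjusted p = 0.00341, and 1.21 ± 0.08, adjusted p = 0.00147). The hairpin groups differed by 0.02 ± 0.08 for CEACAM6 (adjusted p = 0.901). Named after their values were seen, S100P (1.97 ± 0.20, adjusted p = 0.00363) and the mucus protein FCGBP (1.21 ± 0.17, adjusted p = 0.00723) also rose in shCBX8-2, and BCAS1 fell there (-0.996 ± 0.19, adjusted p = 0.0187).

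AGR2, the disulfide isomerase needed to fold MUC2 and MUC5AC, was at a mean of 73.5 CPM in control, 75.4 in shCBX8-1 and 68.7 in shCBX8-2, and neither difference passed (adjusted p = 0.902 and 0.523). TFF3, CLCA1 and SCGB1A1, markers of goblet and club cells, were among 7 genes of the list with no count in any library. Others were present at a mean below 1 CPM and were not called in either group. These were AGR3, TFF1, CLCA2, ZG16B, REP15, BPIFB1, PIGR and LYZ. The shCBX8-1 calls of SLPI, LCN2 and CEACAM6 were lost on leaving out control 1, control 2 or replicate 1 or 2 of shCBX8-1, each in turn. So were almost all shCBX8-1 calls over all genes. With only the libraries compared these 3 calls remained (edgeR quasi-likelihood test, adjusted p up to 0.00321). In shCBX8-2 the call of BCAS1 ended under that setting (adjusted p = 0.0527). In shCBX8-2 the calls of S100P, FCGBP and BCAS1 ended without control 1 or control 2, and that of BCAS1 also without shCBX8-1 replicate 1 or replicate 2. Those of SLPI, LCN2 and CEACAM6 in shCBX8-2 held without any 1 library.

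Transcription factors and signals known to act on mucin genes were listed as 36 genes, of which 34 could be tested. In shCBX8-1, 2 rose and 1 fell, and in shCBX8-2, 3 rose and 5 fell, with list medians of -0.03 and -0.14. SOX2, a factor of airway progenitors, fell in shCBX8-2 (-2.90 ± 0.28, adjusted p = 0.00318), from 3.33 and 4.63 CPM in control to 0.504 and 0.556. KLF4 rose there (1.05 ± 0.11, adjusted p = 0.00399). FOXM1, a factor of proliferating cells linked to goblet cell formation, rose in both groups (0.44 ± 0.08, adjusted p = 0.0494, and 0.79 ± 0.08, adjusted p = 0.00378). In shCBX8-1 TGFA, a ligand of EGFR, rose (1.19 ± 0.14, adjusted p = 0.0160) and XBP1, a factor of the secretory stress response, fell (-0.50 ± 0.09, adjusted p = 0.0436). Named after their values were seen, EGFR rose in shCBX8-2 (0.46 ± 0.07, adjusted p = 0.0105), and FOXA2 (-0.74 ± 0.18, adjusted p = 0.0381), STAT3 (-0.53 ± 0.08, adjusted p = 0.00825) and NKX2-1 (-2.34 ± 0.59, adjusted p = 0.0477) fell. FOXA2 and NKX2-1 are known as factors that hold back goblet cell formation in the airway. In shCBX8-1 they were at -0.01 ± 0.17 and 0.54 ± 0.54 and were not called (adjusted p = 0.987 and 0.693). NKX2-1 rests on few counts, 64 and 150 in control against 29 and 11 in shCBX8-2. The part of either factor in the mucin levels was not tested.

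Of the factors placed around SPDEF in goblet cells, FOXA3 (adjusted p = 0.689 and 0.730) and STAT6 (adjusted p = 0.906 and 0.969), which relays interleukin 13, were not called. The epithelial ETS factor ELF3 was at a mean of 330.2, 346.8 and 348.6 CPM and was not called. All 3 shCBX8-1 calls of the regulators were lost on leaving out control 1, control 2 or replicate 1 or 2 of shCBX8-1, each in turn. So were almost all shCBX8-1 calls over all genes. In shCBX8-2 the calls of the genes named here, all but SOX2, ended without control 1 or control 2. Those of FOXA2 and NKX2-1 also ended without shCBX8-1 replicate 1 or 2.

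Mucins need O-glycosylation, for which 40 enzymes were listed and 34 could be tested. In shCBX8-1, 4 rose and none fell, and in shCBX8-2, 4 rose and 2 fell, with list medians of 0.09 and 0.03. The initiating N-acetylgalactosaminyltransferases GALNT18 (1.15 ± 0.11, adjusted p = 0.00861) and GALNT10 (0.74 ± 0.09, adjusted p = 0.0162) rose in shCBX8-1, where their levels were above those of both other groups. ST3GAL4, which adds sialic acid, rose in both groups (0.48 ± 0.09, adjusted p = 0.0450, and 0.72 ± 0.09, adjusted p = 0.00508), as did GALNT9 (1.66 ± 0.30, adjusted p = 0.0453, and 1.33 ± 0.30, adjusted p = 0.0329). GCNT1, which builds core 2 branches, fell in shCBX8-2 (-1.57 ± 0.27, adjusted p = 0.0142). Named after their values were seen, B3GNT3 and ST3GAL1 rose there (0.62 ± 0.15, adjusted p = 0.0373, and 0.33 ± 0.08, adjusted p = 0.0393) and GALNT16 fell (-2.64 ± 0.56, adjusted p = 0.0280). The core enzymes C1GALT1, its chaperone C1GALT1C1 and GCNT3, the mucin-type branching enzyme, were not called. All 4 shCBX8-1 calls were lost on leaving out control 1, control 2 or replicate 1 or 2 of shCBX8-1, each in turn. So were almost all shCBX8-1 calls over all genes. All 6 shCBX8-2 calls ended without control 1 or control 2, and those of GALNT9, GALNT16, B3GNT3 and ST3GAL1 without shCBX8-1 replicate 1 or 2.

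Granule packaging and release were covered by 22 genes, of which 19 could be tested. In shCBX8-1 none rose and 1 fell, and in shCBX8-2, 2 rose and 5 fell. The list medians were -0.06 and -0.52. The SNARE protein SNAP23 fell in shCBX8-1 (-1.30 ± 0.13, adjusted p = 0.0109) and in shCBX8-2 (-0.70 ± 0.13, adjusted p = 0.0196). In shCBX8-2 the granule SNARE VAMP8 (0.88 ± 0.12, adjusted p = 0.00701) and the priming factor UNC13D (0.85 ± 0.13, adjusted p = 0.00949) rose. The Rab27 effector SYTL2 fell there (-1.08 ± 0.16, adjusted p = 0.00867). Named after their values were seen, STX3 (-0.54 ± 0.12, adjusted p = 0.0310) and RAB3D (-0.63 ± 0.13, adjusted p = 0.0269) fell there as well. The SNAP23 call in shCBX8-1 was lost on leaving out control 1, control 2 or replicate 1 or 2 of shCBX8-1, each in turn. So were almost all shCBX8-1 calls over all genes. The shCBX8-2 calls of all 6 genes named here ended without control 1 or control 2, and those of STX3, SNAP23 and RAB3D without shCBX8-1 replicate 1 or 2.

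Partners and sheddases of the transmembrane mucins were read beside MUC16 and MUC1, as 20 genes of which 18 could be tested. In shCBX8-1, 3 rose and none fell, and in shCBX8-2, 6 rose and none fell, with medians of 0.14 and 0.11. MSLN, mesothelin, the cell surface ligand of MUC16, was at 9.26 and 8.50 CPM in control, at 22.7 and 22.0 in shCBX8-1, and at 29.3 and 27.2 in shCBX8-2. It rose in both groups (1.33 ± 0.12, adjusted p = 0.00666, and 1.67 ± 0.12, adjusted p = 0.00162), with the groups in the order seen for MUC16. LGALS3, galectin 3, which binds sugars of MUC1 and MUC16, rose in shCBX8-2 (1.18 ± 0.09, adjusted p = 0.00178) and was at 0.20 ± 0.09 in shCBX8-1 (adjusted p = 0.334). LGALS1, galectin 1, rose in both (0.78 ± 0.09, adjusted p = 0.0149, and 0.40 ± 0.09, adjusted p = 0.0324), as did MET (0.49 ± 0.09, adjusted p = 0.0436, and 0.34 ± 0.09, adjusted p = 0.0495). EZR, ezrin, which ties membrane mucins to actin, rose in shCBX8-2 (0.59 ± 0.06, adjusted p = 0.00363), and EGFR, a receptor that MUC1 binds, is given above.

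Of the sheddases, ADAM17 was at 0.02 ± 0.08 and -0.02 ± 0.08 (adjusted p = 0.929 and 0.924) and ADAM10 was at 0.11 ± 0.16 and -0.17 ± 0.16 (adjusted p = 0.804 and 0.547), and neither was called. All 3 shCBX8-1 calls of the partner genes were lost on leaving out control 1, control 2 or replicate 1 or 2 of shCBX8-1, each in turn. So were almost all shCBX8-1 calls over all genes. In shCBX8-2 the calls of EGFR, LGALS1 and MET ended without control 1 or control 2, and that of EZR without control 2. The calls of LGALS1 and MET in shCBX8-2 also ended without shCBX8-1 replicate 1 or 2. Those of MSLN and LGALS3 in shCBX8-2 held without any 1 library.

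**Figure D4:**
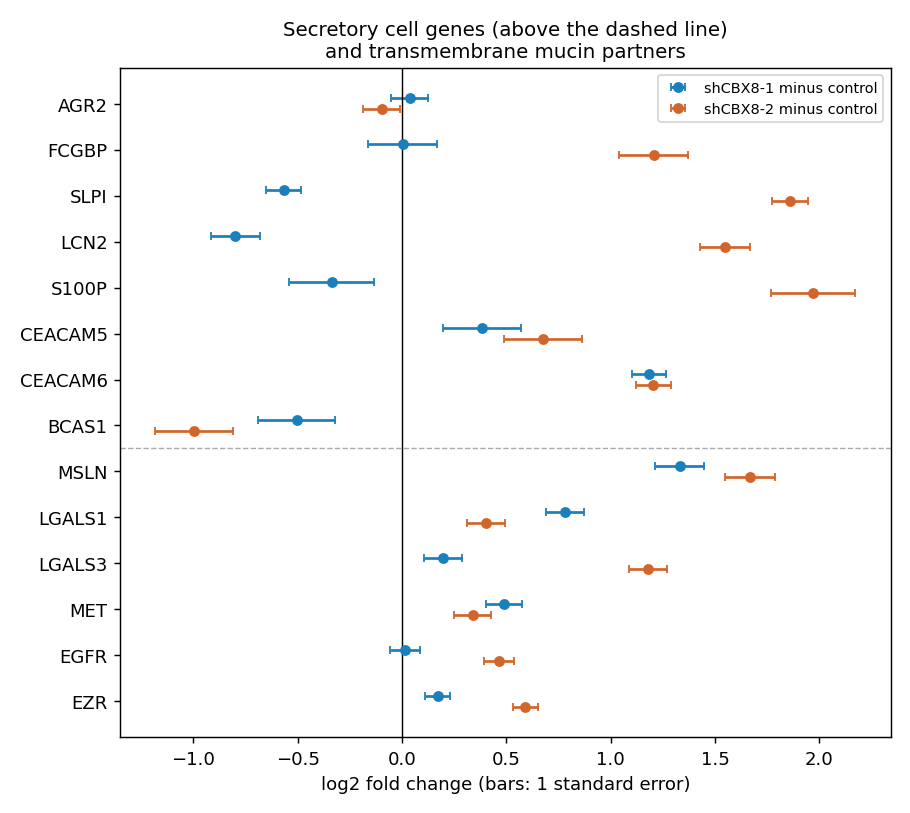
Log2 fold change against control (horizontal axis) with 1 standard error in shCBX8-1 and shCBX8-2, for secretory cell genes above the dashed line and partners of transmembrane mucins below it. SLPI and LCN2 lie on opposite sides of 0 in the 2 groups, CEACAM6 and MSLN lie above 1 in both, and AGR2 lies near 0.

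MUC5AC and MUC5B sit in the mucin cluster at 11p15.5, with the end of MUC5AC 21.928 kb before the start of MUC5B and with MUC6 and MUC2 beside them. Of 10 neighbours tested, none was called in shCBX8-1, and 2 rose and 1 fell in shCBX8-2. The medians were -0.07 and 0.38. Besides MUC2, CTSD, cathepsin D, rose (0.55 ± 0.10, adjusted p = 0.0154) and BRSK2, a kinase, fell (-0.89 ± 0.12, adjusted p = 0.00751). TOLLIP, the gene next to MUC5B outside the cluster, was at -0.09 ± 0.11 (adjusted p = 0.604) and AP2A2, next to MUC6, at -0.12 ± 0.10 (adjusted p = 0.457) in shCBX8-2. Inside the cluster MUC2 was called and MUC6 was not (0.84 ± 0.82, adjusted p = 0.540), and neither flanking gene was called. All 3 calls, MUC2 included, ended without control 1 or control 2 (adjusted p up to 0.149 each). MUC5B-AS1, transcribed across MUC5B on the other strand, had no count in any library, and whether the counting used strand is not stated.

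**Figure D5:**
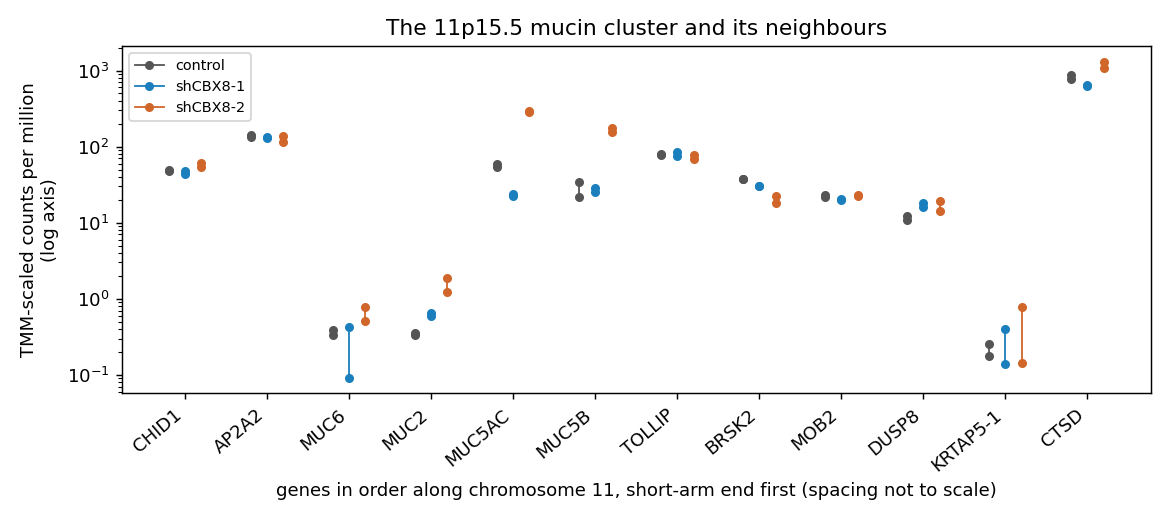
CPM (TMM-scaled, log axis) for MUC6, MUC2, MUC5AC, MUC5B and 8 neighbours, in their order along chromosome 11 with spacing not to scale. The 2 points joined by a line are the libraries of a group. MUC5AC and MUC5B stand apart in shCBX8-2, while AP2A2 and TOLLIP overlap or nearly overlap between groups.

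The lists together held 172 genes, 137 of them tested. In shCBX8-1, 10 rose and 5 fell (10.9% called), and in shCBX8-2, 21 rose and 14 fell (25.5% called), beside 2.47% and 12.7% of all genes. With only the libraries compared, more of all genes were called in shCBX8-1 (1332 higher, 1095 lower) than in shCBX8-2 (485 and 512). The shares therefore do not rank the 2 hairpin groups. The lists hold many well-counted genes and were chosen with results of these libraries known, so the shares are a description. Their median was 0.03 in shCBX8-1 and 0.01 in shCBX8-2. Genes of both directions were called in each group.

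The genes whose levels over the 6 libraries were most like each member were found by the Euclidean distance between log2 CPM values centred on the gene's mean, among 13661 genes with a mean of at least 1 CPM. For MUC5AC they were SLPI (distance 1.24), LCN2 (1.35), S100P (1.41) and MUC5B (1.42). MUC5B was nearest to LGALS9B (0.485), TRIM29 (0.675), AQP1 (0.831) and SLPI (0.880). The counts of LGALS9B are uncertain, as close copies of LGALS9 can share reads. MUC16 was nearest to OLFML3 (0.855), ANPEP (0.965), FXYD3 (0.989) and EDAR (1.09), which all stood high in both hairpin groups. Far closer matches existed for the members with small steps, such as LINC03040 (0.248), MXD3 (0.261), ARHGAP27P1 (0.276) and FAM89B (0.282) for MUC1 and RASAL1 (0.324), TXNIP (0.356), TSC22D1 (0.375) and EGLN3 (0.381) for SPDEF. A gene with large steps has few neighbours at short distance, so distances are not comparable between members.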

How the data were processed

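The authors deposited 1 table of expected counts (reads estimated for each RefSeq transcript), with a column for each of the 6 libraries. All were whole numbers. Per the submitters' processing notes, HISAT2 2.2.1, StringTie 2.2.1, DESeq2 1.34.0 and the build hg38 were used, with no role stated. How the counts were made is not given in the sources used here.

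Of 84787 transcripts, 99.46% were matched to a gene (RefSeq tables of GRCh38.p14, then GENCODE) and counts were summed per gene. Repeated accessions held 2.89 to 3.17% of a library. Genes were fitted in R 4.3.3 with edgeR 4.0.16 (filterByExpr with a minimum count of 10 and total of 15, TMM scaling, quasi-likelihood fit of 3 groups over all 6 libraries, 3 residual degrees of freedom). P-values were two-sided and adjusted by Benjamini and Hochberg over 17114 genes, threshold 0.05, with no minimum fold. The biological coefficient of variation was 19.2%. Transcript usage was tested with edgeR's diffSpliceDGE. CPM are TMM-scaled.

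The members and gene lists were chosen with earlier results of these data known. The naming rule took the members, CBX8, up to 3 called genes of at least 1 CPM with the smallest p per list and hairpin group, 4 nearest genes per member, and any gene of the other mucins and 11p15.5 neighbours. Some list genes are counted but not reported singly here, nor in the 48 list calls refitted under the alternatives. On simulated counts for shCBX8-2 against control (16694 genes), 38% of genes changed 2-fold and 100% of those changed 4-fold were recovered, and 3 of 141 calls were unchanged genes. The simulation gave every gene and group the same spread and changed only genes above 1 CPM. The real shCBX8-2 libraries differed more (median log2 gap 0.241, against 0.129 in control). The simulated shares are therefore not error rates for these data.

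Replicate numbers gave no sign of pairing the libraries, which the few libraries per group cannot exclude. Alternatives were other scalings, DESeq2 1.42.0, no filter, repeated accessions left out, a replicate block, only the libraries compared, a 2-fold minimum, each library left out and, added after the data were seen, GC offsets.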

Additional observations from a re-analysis of the deposited data

Results flagged for a closer look

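Effects that differed between the hairpin groups are given, for the members and for list genes called in a hairpin group against control, as the log2 difference of shCBX8-2 minus shCBX8-1. MUC5AC (3.66) and SPDEF (1.48) were below both controls in shCBX8-1 and above both in shCBX8-2, and for these members the difference was not tested. For the other genes it was tested by edgeR's quasi-likelihood test, and the adjusted p is that of Benjamini and Hochberg over the 17114 genes.

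Higher in shCBX8-2 than in shCBX8-1 were SLPI (2.43, adjusted p = 0.000236), LCN2 (2.35, 0.000644), S100P (2.31, 0.00208), FCGBP (1.20, 0.00851), LGALS3 (0.98, 0.00247), CTSD (0.93, 0.00397), MUC3A (0.89, 0.0144) and KLF4 (0.89, 0.00735). Smaller positive differences were those of VAMP8 (0.76, adjusted p = 0.0129), B3GNT3 (0.71, 0.0296), SNAP23 (0.60, 0.0383), EGFR (0.45, 0.0144), EZR (0.42, 0.0101) and FOXM1 (0.35, 0.0459). Of these 14 calls, those of SLPI, LCN2 and S100P remained without shCBX8-1 replicate 1, and those 3 and LGALS3 without replicate 2 (adjusted p of the others up to 0.233 and 0.251). Those of B3GNT3, SNAP23, EGFR and FOXM1 ended without control 1, without control 2 and with only the libraries compared.

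Lower in shCBX8-2 were GALNT16 (-4.06, adjusted p = 0.00954), SOX2 (-3.09, 0.00234), NKX2-1 (-2.88, 0.0314), GCNT1 (-1.64, 0.0152), GALNT18 (-1.21, 0.00247), TGFA (-1.20, 0.00585) and SYTL2 (-1.01, 0.0128). Smaller negative differences were those of FOXA2 (-0.73, adjusted p = 0.0479), GALNT10 (-0.60, 0.0110), BRSK2 (-0.58, 0.0337), STAT3 (-0.48, 0.0142) and LGALS1 (-0.38, 0.0477). Of these 12 calls, SOX2 and GALNT18 remained without shCBX8-1 replicate 1 and only SOX2 without replicate 2 (adjusted p of the others up to 0.238 and 0.190). Those of BRSK2, FOXA2, LGALS1 and NKX2-1 ended without control 1 or control 2, and that of GCNT1 without control 1. With only the libraries compared those 5 ended. No call of either direction was lost without a shCBX8-2 library.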

How the results depend on the processing

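MUC5B in shCBX8-1 overlapped control and was near 0 (-0.05 ± 0.20), so its sign is not read. No other log2 fold change of a member changed sign under DESeq2 size factors, upper-quartile scaling, the DESeq2 Wald test, no filter, repeated accessions left out, the replicate block, only the libraries compared or GC offsets. MUC16 between the hairpin groups, 0.31, became 0.28 with no filter, with repeated accessions left out and with only the libraries compared. Without 1 library in turn, values in shCBX8-1, in shCBX8-2 and between the hairpin groups ran from -1.33 to -1.20, 2.31 to 2.43 and 3.60 to 3.67 for MUC5AC, from -0.32 to 0.33, 2.26 to 2.90 and 2.49 to 2.69 for MUC5B, from 2.52 to 2.66, 2.80 to 2.94 and 0.27 to 0.32 for MUC16, from 0.37 to 0.75, 0.69 to 1.22 and 0.15 to 0.69 for MUC1, and from -0.88 to -0.54, 0.57 to 0.92 and 1.45 to 1.52 for SPDEF. The cause of these movements was not tested.

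Counts of called genes moved more. In shCBX8-1, 229 rose and 194 fell, with 835 and 641 by DESeq2, 1332 and 1095 with only the libraries compared, 838 and 570 with GC offsets, 70 and 85 at 2-fold or more, and 123 lower with no filter. In shCBX8-2 (1033 and 1140) these were 1832 and 1726 by DESeq2, 485 and 512 with only the libraries compared, 2099 and 1727 with GC offsets, and 114 and 510 at 2-fold. Between the hairpin groups (692 and 988) they were 1381 and 1575, 224 and 414, 1546 and 1573, and 131 and 442. For list genes in shCBX8-1 (10 and 5) they were 17 and 16 by DESeq2, 24 and 19 with only the libraries compared and 19 and 15 with GC offsets. For those in shCBX8-2 (21 and 14) 22 fell by DESeq2, 6 with only the libraries compared, and 32 rose and 22 fell with GC offsets. Between the hairpin groups (18 and 15) 9 fell with only the libraries compared. Over all genes, the hairpin group with more calls against control was shCBX8-2 in the main fit and shCBX8-1 with only the libraries compared.

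Without 1 library, counts ran from 0 to 1289 higher and 0 to 1066 lower in shCBX8-1, 63 to 2434 and 76 to 3075 in shCBX8-2, and 37 to 2190 and 89 to 2914 between the hairpin groups. For list genes they ran from 0 to 23 and 0 to 18, from 5 to 32 and 1 to 26, and from 3 to 25 and 2 to 31. Of 48 list calls, 7 remained without control 1, 6 without control 2, 20 without either 1 of the shCBX8-1 libraries and 48 without either 1 of the shCBX8-2 libraries, and none turned sign. Where an arm held 1 library, that library is assumed to vary like the other groups.

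Replicate numbers are shared by the groups, but same-numbered libraries did not deviate together (correlations -0.012, -0.018 and 0.012 across 17114 genes). No pairing by number was thus seen, although the few libraries per group cannot exclude it. With the replicate block 97 rose and 76 fell in shCBX8-1, 404 rose between the hairpin groups, 6 list genes rose and 1 fell in shCBX8-1, and 32 of the 48 list calls remained. Usage of MUC1 and SPDEF transcripts was not called under any alternative run, with the lowest adjusted p, 0.150, for SPDEF in shCBX8-1 without shCBX8-1 replicate 1.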
